A study of Mus musculus with 9 samples.

Results

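The genes for the membrane sector (Fo) and the peripheral stalk of the mitochondrial ATP synthase were followed in the hippocampus of mice that lack or overexpress ATPase inhibitory factor 1 (IF1), the protein that binds the ATP synthase and inhibits it. The members were every non-control probe on the array that carried the name of 1 of 10 genes: Atp5f1, Atp5h, Atp5j and Atp5o of the peripheral stalk, Atp5g1, Atp5g2 and Atp5g3 of the c ring, and Atp5j2, Atp5k and Atp5l of the membrane accessory subunits. They came to 20 probes of 39429, and all 20 were among the 27991 probes kept after the filter on dim probes. RNA came from 9 male mice on the C57BL/6J background aged 9 months, 3 of each genotype, with 1 one-colour Agilent array per mouse. IF1KO mice carried a floxed Atpif1 gene from which Cre recombinase under the Camk2a promoter removed an exon. IF1TG mice carried human IF1 under a tetracycline-responsive element together with a Camk2a-driven transactivator. CRL mice were the controls. The study describes its CRL mice as +/+ for Atpif1 and, for neuronal cultures, as carrying Cre, while the controls of the transgenic cross are wild type or carry the transactivator alone, and which of these was hybridized is not given in the sources used here. The Camk2a promoter is active mostly in excitatory neurons, so cells in which it is not active keep their IF1 in IF1KO mice and are not expected to express the transgene in IF1TG mice. The tissue is bulk, and fewer cells of a type and less RNA per cell cannot be told apart.

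The ATP synthase makes ATP from the flow of protons through the inner mitochondrial membrane. Protons pass at the edge of a rotor made of identical c subunits, the rotor turns a central shaft inside the catalytic F1 head, and the peripheral stalk holds the head still against the membrane sector. The small membrane subunits e, f and g sit where 2 complexes meet in a dimer, and rows of dimers bend the membrane at the edges of cristae. In neurons the enzyme supplies most of the ATP spent on ion pumping and synaptic transmission.

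By the deposited positions, many of the 20 probes lie away from the genes they are named for, while 19 of the 20 are annotated to a RefSeq mRNA. Of the 20, 8 were placed on the chromosome of their gene, 10 on another chromosome and 2 on an unplaced segment of chromosome 17 (mm9, the build of the deposited probe positions; the chromosomes of the genes are those of RefSeq). RefSeq lists pseudogenes of these genes by name, among them Atp5k-ps1 on chromosome 8 and Atp5pb-ps on chromosome 11, the chromosomes on which both Atp5k probes and the dimmer Atp5f1 probe were placed. A probe on such a copy can bind the transcript of the gene, of the copy or of both, so its value is uncertain as a measure of the gene. The polyadenylation signal AATAAA, searched on the printed strand only, was present in 9 of the 20 probes, or 45%, against 13.6% of all kept probes. The median GC content was 39.15% for the 20 probes and 43.3% for all kept probes.

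The Atp5l probes are shown first because 5 of the 6 differ little within the window shown and yet are placed on 4 chromosomes, with 2 of them on chromosome 6. Each line gives the stretch of the probe that ends with the 11 bases all 5 share, 5′ to 3′, with the 4 positions that differ between probes in capitals. The probe on chromosome 9, the chromosome of Atp5l, begins inside this window.
Atp5l A_55_P2002602, chromosome X: gaccatgtgtaaCGGgacTgctatctgaat
Atp5l A_55_P2026669, chromosome 10: gaccatgtgtaaCGGgacCgctatctgaat
Atp5l A_55_P2000909, chromosome 6: gaccatgtgtaaCAGgacTgctatctgaat
Atp5l A_55_P2024021, chromosome 6: gaccatgtgtaaAGAgacTgctatctgaat
Atp5l A_55_P2067682, chromosome 9: AGgacTgctatctgaat

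The Atp5k, Atp5j2 and Atp5h probes are shown because each of these genes was read by a pair of probes that did not move alike. Of the Atp5j2 and Atp5h probes, 1 of each pair reads an open frame on the printed strand and is given whole, and the other is given as the 30 bases around its AATAAA, in capitals. For Atp5k the first 30 bases of each probe are given. Positions are on mm9.
Atp5k A_55_P2168663, chr8:88348450-88348509, plus strand: cagcgagcttgcttttctctagtcgttgag
Atp5k A_55_P2168664, chr8:88348387-88348446, plus strand: attgaaacggattgagagagaactggcaga
Atp5j2 A_55_P2118906, chr9:21897298-21897357, plus strand: gaactagtgcccAATAAAaggtgactgatt
Atp5j2 A_55_P2081510, chr5:145948011-145948070, minus strand: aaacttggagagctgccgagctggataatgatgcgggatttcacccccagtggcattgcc
Atp5h A_55_P2152304, chr11:115277011-115277070, minus strand: cggccgacatgaAATAAAacatttaaatag
Atp5h A_55_P2152305, chr11:115277088-115277147, minus strand: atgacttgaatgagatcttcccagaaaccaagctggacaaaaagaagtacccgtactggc

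All values below are log2 signals from which the 75th percentile of the same array was subtracted, and differences are differences of these log2 values. Levels of different probes are not compared, since probes differ in how strongly they bind. Of the 20 probes, 19 were well above background on all 9 arrays, and the exception was Atp5j, whose spot on the array labelled IF1KO replicate 1 was an outlier and was left out. Between 66.7% and 74.9% of all probes were well above background on an array, with the 3 lowest shares on the IF1TG arrays (66.7% to 69.5%), and no spot was saturated. The arrays lay on 3 slides. IF1TG replicates 1 and 2 were on slide 1, IF1KO replicate 1, CRL replicates 1 and 2 and IF1TG replicate 3 on slide 2, and IF1KO replicates 2 and 3 and CRL replicate 3 on slide 3. Atpif1, the targeted gene, read 6.43, 5.20 and 5.53 in IF1KO replicates 1 to 3, 6.30, 6.34 and 6.19 in CRL, and 6.42, 6.38 and 6.51 in IF1TG. The array labelled IF1KO replicate 1 therefore did not show the loss of Atpif1 seen on the other 2 IF1KO arrays, and the main results on IF1KO are also given without it. Whether the Atpif1 probe lies in the deleted exon or binds the human transcript was not determined. Excitatory neuron markers (Camk2a, Slc17a7, Neurod6, Prox1, Wfs1 and Spink8) were present on all arrays, with linear sums of 24.9 to 30.8. The sums of choroid plexus markers ranged from 2.04 to 95.7 in IF1KO, 2.99 to 118 in CRL and 4.84 to 179 in IF1TG, those of oligodendrocyte markers from 80.0 to 117 in IF1KO and up to 140 in CRL and 145 in IF1TG, and those of microglia markers from 19.7 to 22.7, 23.7 to 25.2 and 24.2 to 27.3 in the same order. No gene of these 3 lists passed the thresholds described below. Of the other lists, 1 of 5 astrocyte genes passed in IF1TG versus IF1KO, with sums of 23.0 to 26.4 over the 9 arrays. Striatum markers had median differences from CRL of −0.37 in IF1TG and −0.41 in IF1KO, with 1 of 5 genes past the thresholds in each and sums of 6.49 to 12.2. The 3 pituitary genes kept had medians of −3.46 and −2.67, with 2 past the thresholds in each, and sums of only 0.474 to 0.806. The part of these cells in the differences below was not tested.

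No probe of the 20 passed both thresholds (1.5-fold or more, and an unadjusted P below 0.05 in limma) in any of the 3 comparisons. The same thresholds called 3.77% of all probes in IF1TG versus IF1KO, 4.47% in IF1TG versus CRL and 1.06% in IF1KO versus CRL. At an unadjusted P below 0.05 alone, 0 of 20 probes differed in IF1TG versus IF1KO (7.12% of all probes), 2 in IF1TG versus CRL (8.52%) and 2 in IF1KO versus CRL (2.57%). The smallest Benjamini-Hochberg adjusted P of the 20 in limma was 0.704, 0.522 and 1, respectively. The 3 comparisons share arrays, so their differences are not independent. The 95% intervals come from the fit without slide and varied in width. For Atp5g1, whose SE of 0.10 was the smallest among the brightest probes of the members, IF1TG minus IF1KO lay between −0.07 and 0.41. The interval of the brightest Atp5f1 probe reached 0.81 and that of Atp5j 1.13, both past a fold of 1.5.

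In IF1TG versus IF1KO, the brightest probe of every member was higher in IF1TG, by 0.05 (Atp5g2) to 0.56 (Atp5j), where 51.3% of all genes were higher. This count was 10 of 10 with the main scaling but 8 of 10 with quantile normalization, where Atp5g2 and Atp5h turned, and 7 of 10 with normexp background correction followed by quantile normalization, where Atp5j2 turned as well. It was 8 of 10 with slide in the model and 7 of 9 within slide 2, where the comparison is of IF1TG replicate 3 with the array labelled IF1KO replicate 1, the array without Atpif1 loss. With slide in the model and that array left out, it was 5 of 10, and the differences ran from −0.46 (Atp5g2) to 0.89 (Atp5f1). In that fit slide 3 is tied to slide 2 through CRL and slide 1 to slide 2 through IF1TG replicate 3. The median of the members was 0.18, against 0.0066 for all genes, and the SD of the median between replicates of a genotype was 0.12. It was 0.07 with slide in the model and 0.09 within slide 2, both of which rest on the array labelled IF1KO replicate 1, and −0.0049 with slide in the model and that array left out. Without the array labelled IF1KO replicate 1 the median was 0.21, with 10 of 10 members higher. In IF1TG versus CRL the median was 0.12, with 7 of 10 members higher against 49.9% of all genes, and it fell to 0.02 without CRL replicate 3. In IF1KO versus CRL the median was −0.09, with 2 of 10 members higher against 48.1% of all genes. It was −0.17 without the array labelled IF1KO replicate 1, −0.18 without CRL replicate 3, 0.0038 with slide in the model (6 of 10 higher) and 0.04 with slide in the model and without the array labelled IF1KO replicate 1 (8 of 10 higher).

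**Figure D1:**
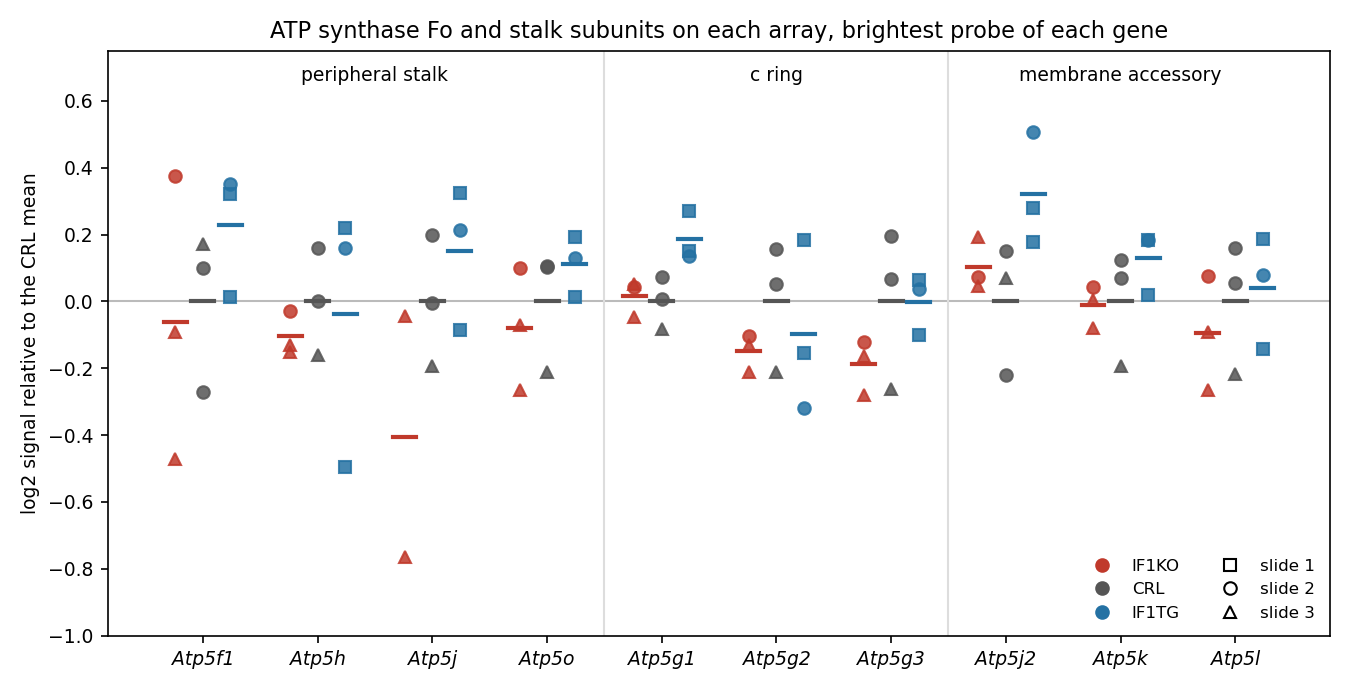
Log2 signal of each member on each array relative to the CRL mean, for the brightest probe of each gene. Points are arrays, with colour for the genotype and shape for the slide, and bars are genotype means. The slide 3 arrays (triangles) lie low in most members of both IF1KO and CRL.

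The spread over arrays followed the slides as well as the genotypes. The median of the members relative to the CRL mean was −0.17 and −0.09 on IF1KO replicates 2 and 3 and −0.19 on CRL replicate 3, the 3 arrays of slide 3. It was positive on all 6 other arrays, from 0.03 on CRL replicate 2 to 0.17 on IF1TG replicate 2. The array labelled IF1KO replicate 1, on slide 2, read 0.04. Slide 3 held the lowest array of 7 of the 10 members, against 33.5% of all genes. Within CRL, slide 3 was lower than slide 2 in 8 of 10 members, against 58.3% of all genes. The median difference was −0.29 against −0.06 for all genes. Within IF1KO it was lower in 8 of the 9 members measured, against 55.1% of all genes, with a median of −0.10 against −0.03. But here the slide 2 array is the one labelled IF1KO replicate 1, so slide and the loss of Atpif1 cannot be told apart. No IF1TG array lay on slide 3, and the IF1KO arrays that lost Atpif1 lay on no other slide, so that for them slide 3 is tied to slide 2 through CRL and slide 1 to slide 2 through IF1TG replicate 3.

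**Figure D2:**
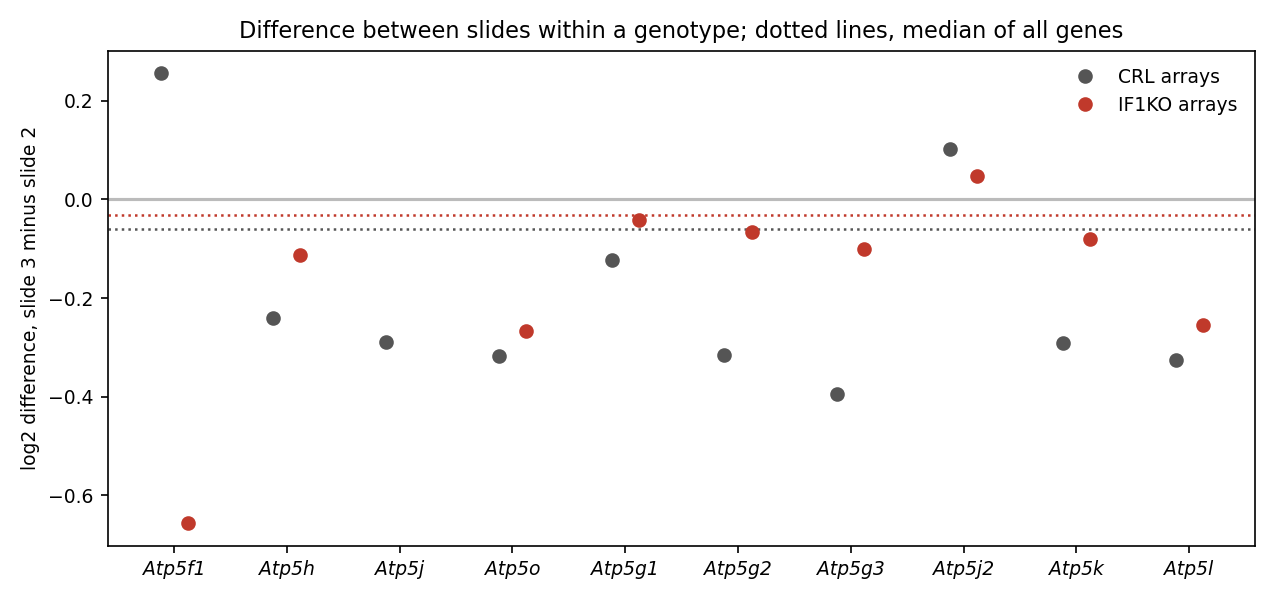
Log2 difference between slide 3 and slide 2 within CRL (1 array minus the mean of 2) and within IF1KO (the mean of 2 arrays minus the array labelled IF1KO replicate 1), for the brightest probe of each member. Dotted lines are the medians of all genes (−0.06 and −0.03). Most members lie below them, and Atp5j2 lies above 0 in both genotypes.

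Atp5j codes for coupling factor F6 of the peripheral stalk and had the largest difference among the brightest probes in IF1TG versus IF1KO. It read 3.16 and 3.88 in IF1KO replicates 2 and 3, 4.13, 3.92 and 3.73 in CRL, and 4.25, 3.84 and 4.14 in IF1TG. The groups overlapped, and IF1KO replicate 2 alone lay far below the rest. The mean was 3.52 ± 0.51 (SD, n = 2) in IF1KO, 3.93 ± 0.20 (SD, n = 3) in CRL and 4.08 ± 0.21 (SD, n = 3) in IF1TG. IF1TG was 0.56 above IF1KO (1.47-fold, 95% interval −0.01 to 1.13, adjusted P = 0.704), and IF1KO minus CRL was −0.41 (95% interval −0.97 to 0.16). Atp5j passed both thresholds in IF1TG versus IF1KO when IF1KO replicate 3 was left out (0.92), which leaves IF1KO replicate 2 as the lone IF1KO value, and when IF1TG replicate 2 was left out (0.67). It also passed in IF1KO versus CRL without IF1KO replicate 3 (−0.77). Without IF1KO replicate 2, which leaves IF1KO replicate 3 as the lone IF1KO value, the differences were 0.20 in IF1TG versus IF1KO and −0.04 in IF1KO versus CRL. With slide in the model the difference of IF1TG from IF1KO was 0.33.

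Atp5f1, the b subunit that anchors the stalk in the membrane, was read by a pair of probes. The probe on chromosome 3, the chromosome of the gene, read 3.68, 2.84 and 3.21 in IF1KO, 3.41, 3.04 and 3.48 in CRL, and 3.32, 3.63 and 3.66 in IF1TG. The array labelled IF1KO replicate 1 was the highest of the 9 and IF1KO replicate 2 the lowest. IF1TG minus IF1KO was 0.29 (SE 0.23, 95% interval −0.22 to 0.81). Without the array labelled IF1KO replicate 1 it was 0.51, past the threshold on P and not on fold, without IF1KO replicate 2 it was 0.09, and within slide 2 it was −0.02. With slide in the model and the array labelled IF1KO replicate 1 left out it was 0.89, past the threshold on fold and not on P, and IF1KO minus CRL was −0.45. The probe on chromosome 11 stayed between 2.53 and 2.76 on all 9 arrays and gave differences of −0.01, −0.01 and 0.01 in the 3 comparisons.

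Atp5h, the d subunit of the stalk, gave 2 probes that disagreed about which array was low. The brighter one, with AATAAA, read 6.00, 5.90 and 5.88 in IF1KO, 6.19, 6.03 and 5.87 in CRL, and 5.53, 6.25 and 6.19 in IF1TG, with IF1TG replicate 1 the lowest. The other, with an open frame, read 5.14, 5.81 and 5.79 in IF1KO, 5.90, 6.01 and 5.72 in CRL, and 5.86, 5.54 and 5.86 in IF1TG, with the array labelled IF1KO replicate 1 the lowest. The genotypes overlapped on both. IF1TG minus IF1KO was 0.06 (SE 0.19) and 0.17 (SE 0.20), and the second value was −0.04 without the array labelled IF1KO replicate 1. Atp5o, which codes for the oligomycin sensitivity conferring protein at the top of the stalk, had genotype means of 3.00 ± 0.18, 3.07 ± 0.18 and 3.19 ± 0.09 (SD, n = 3) in IF1KO, CRL and IF1TG. Its probe was placed on chromosome 12, while the gene is on chromosome 16. IF1TG minus IF1KO was 0.19 (SE 0.14, 95% interval −0.13 to 0.52), 0.01 with slide in the model, and from 0.10 without IF1KO replicate 3 to 0.28 without the array labelled IF1KO replicate 1. The 4 stalk genes together had median differences of 0.24 in IF1TG versus IF1KO, 0.13 in IF1TG versus CRL and −0.09 in IF1KO versus CRL. The first ranged from 0.14 without IF1KO replicate 2 to 0.40 without the array labelled IF1KO replicate 1, both with 4 of 4 higher, and was 0.21 with slide in the model. The second ranged from 0.03 without CRL replicate 3 to 0.21 without CRL replicate 1. The last ranged from −0.22 without the array labelled IF1KO replicate 1 to −0.02 without CRL replicate 1, and with slide in the model it was −0.02, with 2 of 4 higher.

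The c ring genes Atp5g1, Atp5g2 and Atp5g3 code for the same mature c subunit with different mitochondrial import peptides. Atp5g1 was the tightest of the members between replicates, with an SD within genotypes of 0.07. It read 5.54, 5.45 and 5.55 in IF1KO, 5.57, 5.51 and 5.42 in CRL, and 5.77, 5.65 and 5.63 in IF1TG. All 3 IF1TG arrays lay above all 6 others. The difference was 0.17 from IF1KO (1.13-fold, 95% interval −0.07 to 0.41, adjusted P = 0.735) and 0.19 from CRL (1.14-fold, 95% interval −0.05 to 0.42, adjusted P = 0.659). Within slide 2 both differences were 0.09. IF1KO and CRL differed by 0.02 (95% interval −0.22 to 0.25). IF1TG minus IF1KO was 0.18 and IF1KO minus CRL 0.0018 without the array labelled IF1KO replicate 1. The former was 0.13 without IF1TG replicate 1, 0.06 with slide in the model and 0.0095 with slide in the model and the array labelled IF1KO replicate 1 left out.

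Atp5g3 read 4.65, 4.49 and 4.61 in IF1KO, 4.97, 4.84 and 4.51 in CRL, and 4.84, 4.67 and 4.81 in IF1TG. IF1TG lay above IF1KO on every array, by a mean of 0.19 (SE 0.14, adjusted P = 0.766), while CRL spanned both. The difference was 0.14 without IF1KO replicate 2, 0.22 without the array labelled IF1KO replicate 1, 0.06 with slide in the model, and −0.14 with slide in the model and that array left out. Atp5g1 and Atp5g3 were the only 2 of 19 probes measured on all 9 arrays whose IF1TG and IF1KO values did not overlap, or 10.5%, against 13.6% of all probes. Without the array labelled IF1KO replicate 1, 5 of 19 did not overlap, or 26.3%, against 26.9% of all probes. Atp5g2 was read by 2 neighbouring probes. The brighter one read 5.79, 5.68 and 5.76 in IF1KO, 6.05, 5.95 and 5.68 in CRL, and 5.74, 6.08 and 5.58 in IF1TG, so IF1TG held both the highest and the lowest array. The other stayed between 4.96 and 5.27. None of the Atp5g2 differences exceeded 0.15 in size in the fit without slide, and with slide in the model the brighter probe was at −0.30 in IF1TG versus IF1KO and −0.38 in IF1TG versus CRL, neither of which passed a threshold.

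The balance between the c isoforms was taken as the difference of their log2 values on each array, set to a mean of 0 in CRL, and was not tested. Atp5g1 over Atp5g2 was 0.15, 0.16 and 0.18 in IF1KO, −0.08, −0.04 and 0.13 in CRL, and 0.42, −0.03 and 0.45 in IF1TG. IF1KO lay above CRL on every array, by the least against CRL replicate 3, and IF1TG spread over both. The Atp5g2 values used here are of its brighter probe, which was at −0.15 in IF1KO minus CRL. The dimmer Atp5g2 probe was at 0.04 and Atp5g1 at 0.02, so this shift rests on the brighter Atp5g2 probe. Atp5g1 over Atp5g3 had a mean of 0.20 ± 0.03 (SD, n = 3) in IF1KO and 0.19 ± 0.08 (SD, n = 3) in IF1TG, with CRL replicate 3 at 0.18. The SD in CRL was 0.16. In both ratios CRL replicate 3, on slide 3, was the CRL array nearest to IF1KO. The IF1KO means without the array labelled IF1KO replicate 1 were 0.17 for Atp5g1 over Atp5g2 and 0.22 for Atp5g1 over Atp5g3. Atp5g2 over Atp5g3 was 0.04 ± 0.03 in IF1KO and −0.10 ± 0.34 in IF1TG (SD, n = 3).

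**Figure D3:**
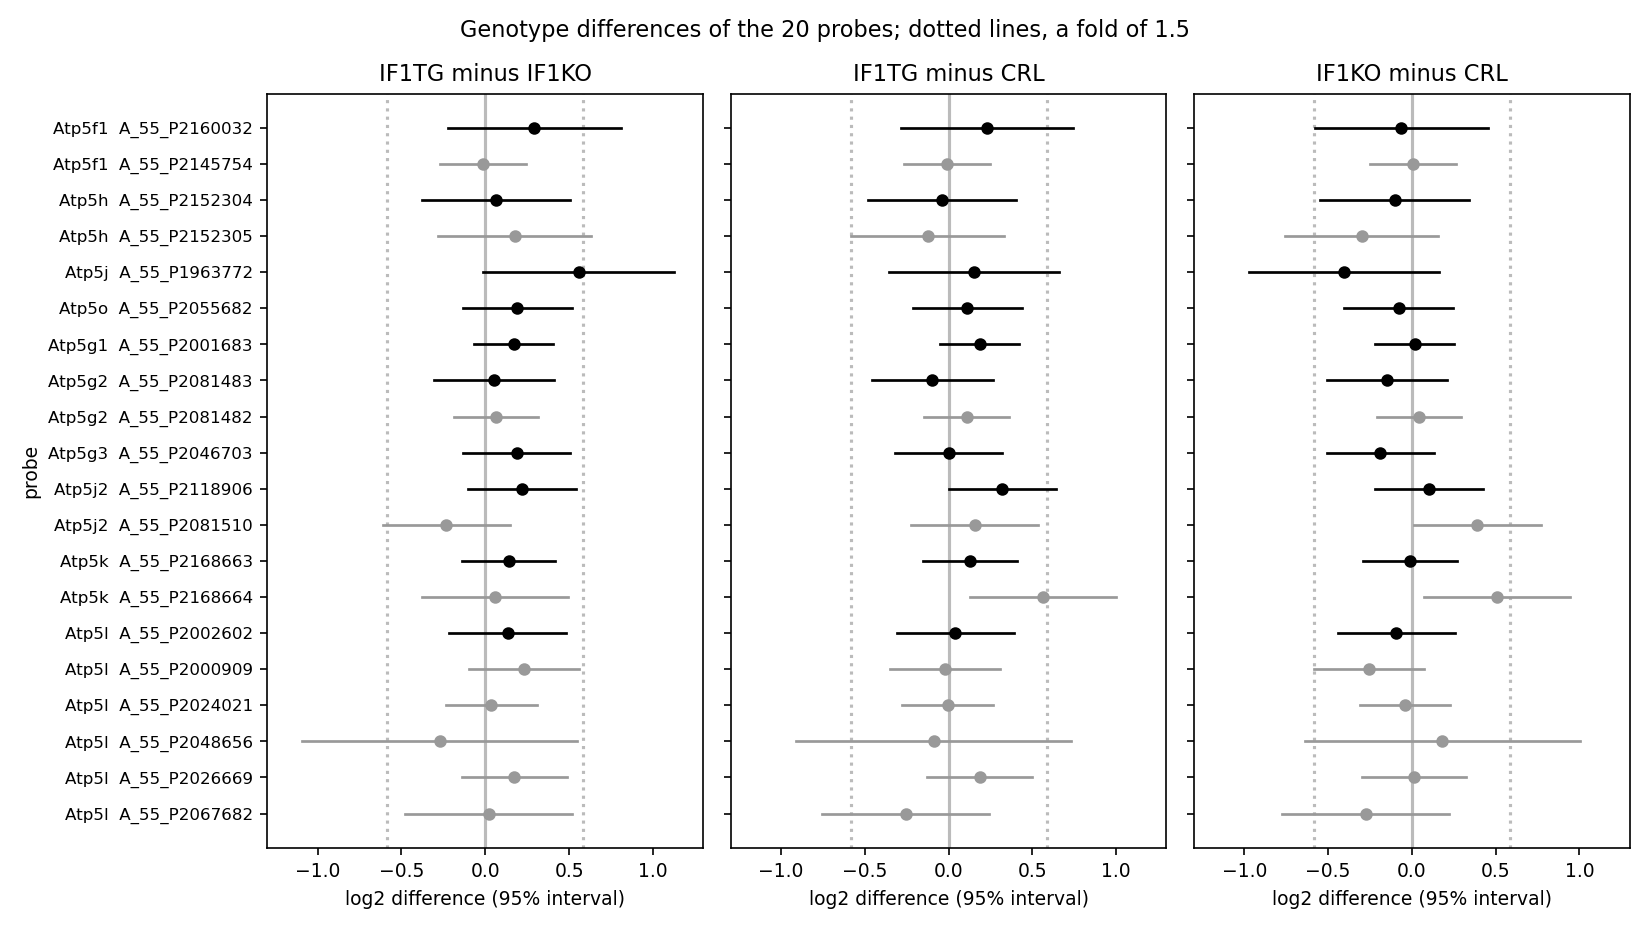
Log2 differences of the 20 probes in the 3 comparisons, with 95% intervals from limma. Black marks the brightest probe of each gene, grey the others, and dotted lines a fold of 1.5. The intervals of Atp5j2 and Atp5k probes leave 0 in comparisons with CRL, and no point lies past the dotted lines.

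Atp5j2, Atp5k and Atp5l code for subunits f, e and g, small membrane subunits of which e and g are needed for stable dimers. This group holds 10 of the 20 probes, and the probes with an unadjusted P below 0.05 in limma were all in it. They were 2 of 20 in IF1TG versus CRL (8.52% of all probes) and 2 of 20 in IF1KO versus CRL (2.57%). The brighter Atp5j2 probe was placed on chromosome 9, away from the gene on chromosome 5. It read 4.86, 4.84 and 4.98 in IF1KO, 4.94, 4.57 and 4.86 in CRL, and 4.97, 5.07 and 5.30 in IF1TG. IF1TG lay above CRL on every array, by 0.32 (1.25-fold, 95% interval 0.00057 to 0.64, adjusted P = 0.584), and its mean was above that of IF1KO by 0.22 (95% interval −0.10 to 0.54). With slide in the model the 2 differences were 0.53 and 0.45, and the first passed the threshold on P. Without the array labelled IF1KO replicate 1 and without slide in the model, the difference from CRL was 0.32 and did not pass it. With CRL replicate 2 left out it was 0.21, the lowest of these differences. The difference from IF1KO was 0.12 without IF1TG replicate 3 and 0.29 without IF1TG replicate 1.

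The other Atp5j2 probe, on chromosome 5 and with an open frame, ordered the genotypes differently. It read 4.32, 4.20 and 4.29 in IF1KO, 3.63, 3.84 and 4.18 in CRL, and 4.27, 3.91 and 3.93 in IF1TG. All IF1KO arrays lay above all CRL arrays, by a mean of 0.39 (1.31-fold, 95% interval 0.01 to 0.77, adjusted P = 1). Without the array labelled IF1KO replicate 1 the difference was 0.36, and with slide in the model it was 0.33, and neither passed the threshold on P. With both changes together it was 0.07, and with single arrays left out it ran from 0.26 without CRL replicate 1 to 0.54 without CRL replicate 3. IF1TG minus IF1KO was −0.23, opposite in sign to the brighter probe, so the mean of the 2 probes was −0.01. With slide in the model and the array labelled IF1KO replicate 1 left out, the dimmer probe was at 0.13, the sign of the brighter one.

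The 2 Atp5k probes are neighbours on chromosome 8, away from the gene on chromosome 5. The brighter one varied little, with 5.27, 5.23 and 5.14 in IF1KO, 5.29, 5.35 and 5.03 in CRL, and 5.41, 5.24 and 5.40 in IF1TG. Its differences were 0.14, 0.13 and −0.01 in the 3 comparisons, with SE 0.12. The difference of IF1TG from CRL on this probe was 0.03 without CRL replicate 3 and 0.19 without CRL replicate 2. The dimmer Atp5k probe read 5.00, 4.76 and 4.97 in IF1KO, 4.30, 4.08 and 4.83 in CRL, and 5.00, 4.85 and 5.06 in IF1TG. CRL replicates 1 and 2 were low on this probe, and CRL replicate 3 lay among the IF1KO arrays. IF1TG exceeded CRL on every array, by 0.57 (1.48-fold, 95% interval 0.13 to 1.00, adjusted P = 0.522), and IF1KO exceeded CRL by 0.51 (1.42-fold, 95% interval 0.07 to 0.94, adjusted P = 1). Without CRL replicate 3 both differences passed both thresholds (0.78 and 0.72), and IF1TG versus CRL also passed without IF1TG replicate 2 (0.62) and with slide in the model (0.74). IF1TG versus CRL did not pass the threshold on P without CRL replicate 1 (0.51) or without CRL replicate 2 (0.40). IF1KO versus CRL did not pass it without the array labelled IF1KO replicate 1 (0.46), without IF1KO replicate 3 (0.48), without CRL replicate 1 (0.46) or CRL replicate 2 (0.35), or with slide in the model (0.42), and it was 0.04 with slide in the model and the array labelled IF1KO replicate 1 left out. The probe did not separate IF1TG from IF1KO (0.06, 95% interval −0.38 to 0.49), but with slide in the model and the array labelled IF1KO replicate 1 left out the difference was 0.83 and passed both thresholds.

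**Figure D4:**
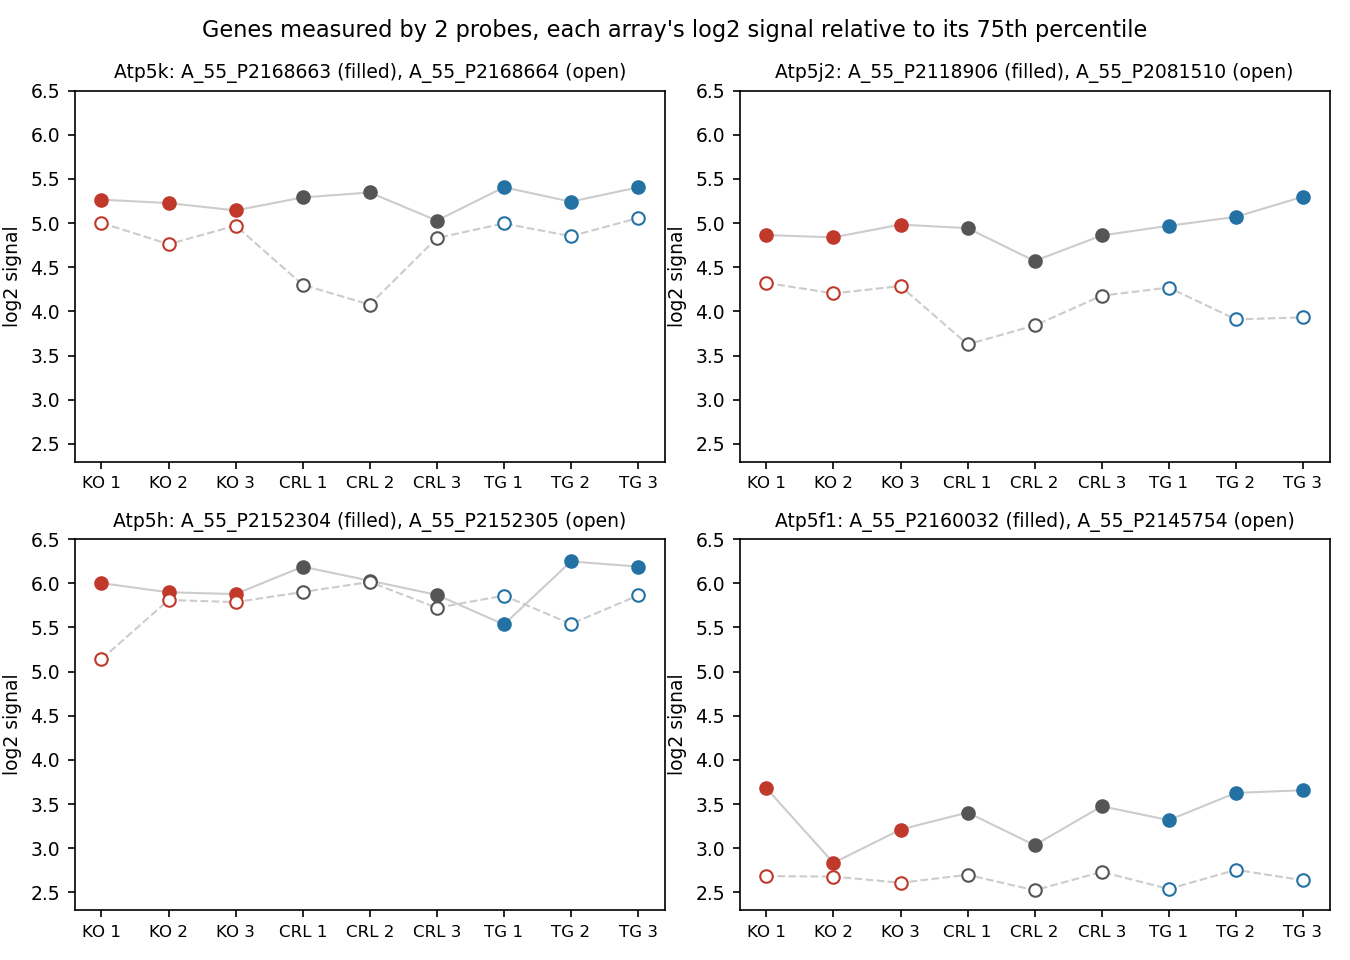
Log2 signal, relative to the 75th percentile, of 4 of the 5 genes read by 2 probes, on each array (IF1KO, CRL, IF1TG, replicates 1 to 3). Filled points are the brighter probe and open points the other. CRL replicates 1 and 2 are low on the open Atp5k and Atp5j2 probes and not on the filled Atp5k probe, and the low array of Atp5h differs between its probes.

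Atp5l was read by 6 probes, and their differences in IF1TG versus IF1KO ran from −0.27 to 0.23. The brightest, on chromosome X, read 5.19, 4.85 and 5.02 in IF1KO, 5.28, 5.17 and 4.90 in CRL, and 5.30, 4.98 and 5.19 in IF1TG, and its differences were 0.13, 0.04 and −0.09 (SE 0.15). The first was 0.22 and the last −0.18 without the array labelled IF1KO replicate 1, and 0.05 and −0.0076 without IF1KO replicate 2. The first was 0.06 without IF1TG replicate 1. The probe A_55_P2000909 on chromosome 6 read 4.38, 4.39 and 4.61 in IF1KO and 4.75, 4.74 and 4.66 in CRL. IF1KO thus lay below CRL on every array, by a mean of 0.26 (difference −0.26, SE 0.14, 95% interval −0.58 to 0.07), and from −0.33 to −0.22 with an array left out. The probe on chromosome 14 had the widest spread of the 20, with IF1TG replicate 1 at 2.21 and CRL replicate 1 at 2.81 against 3.28 to 3.59 on the other 7 arrays. The only Atp5l probe on the chromosome of the gene was also the dimmest, with values of 0.91 to 1.88, and its differences were 0.02, −0.26 and −0.28 (SE 0.22). Its differences of IF1TG and IF1KO from CRL were −0.08 and −0.10 without CRL replicate 2, and −0.38 and −0.40 without CRL replicate 1.

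Over all member probes, 3 of 19 did not overlap between IF1TG and CRL (Atp5g1, the brighter Atp5j2 probe and the dimmer Atp5k probe), or 15.8%, against 12.2% of all probes. In IF1KO versus CRL, 2 of 19 did not overlap (the dimmer Atp5j2 probe and A_55_P2000909 of Atp5l), or 10.5%, against 8.01%. Without the array labelled IF1KO replicate 1 these were again 2 of 19, against 21.1% of all probes. Where only the probes on the chromosome of their gene were used, for the 7 members that have one, the medians were 0.17, 0.15 and −0.10 in the 3 comparisons.

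Other genes of oxidative phosphorylation were described beside the members. The 5 F1 genes, which code for the catalytic head and central shaft, had a median of 0.05 in IF1TG versus IF1KO, with 3 higher and 2 lower, and no probe passed the thresholds. Atp5a1 (alpha subunit) differed by 0.42 (SE 0.42, adjusted P = 0.822) and Atp5b (beta subunit) by 0.23 (SE 0.11, adjusted P = 0.711), and in IF1TG versus CRL Atp5b differed by 0.25 (adjusted P = 0.578). Atp5a1, whose spot on IF1TG replicate 1 was an outlier and was left out, differed by 0.81 in IF1TG versus CRL (1.75-fold, n = 2 in IF1TG, adjusted P = 0.649), with both IF1TG arrays above all 3 CRL arrays, and did not pass the threshold on P. Atp5a1 in IF1TG versus IF1KO was 0.06 without the array labelled IF1KO replicate 1. The F1 median ranged from −0.07 without IF1TG replicate 2 to 0.18 without IF1TG replicate 1. Of 9 other ATP synthase genes listed, 7 were measured, with a median of −0.03, 3 higher and 4 lower, and none passed the thresholds. Tmem70, an assembly factor, had a difference of −0.45 (SE 0.19, adjusted P = 0.697), and Atpaf1, which assists assembly of F1, differed by 0.23 (SE 0.19), or by −0.53 and 0.07, respectively, without the array labelled IF1KO replicate 1. The 37 complex I genes had a median of 0.02, with 20 higher, and the 20 genes of complexes III and IV a median of −0.02, with 9 higher. With slide in the model these medians were 0.0034 (20 higher) and 0.09 (13 higher), against 0.07 for the members. With the array labelled IF1KO replicate 1 also left out they were 0.01 (19 higher) and 0.08 (14 higher), against −0.0049 for the members. The F1 median was 0.03 and then 0.08 in these fits, and that of the other ATP synthase genes −0.0039 and then 0.16. In IF1TG versus CRL, 2 probes of complex I (Ndufa13, 1.53-fold, and Ndufs8, 1.64-fold) and 1 of complex IV (Cox7c, 1.62-fold) passed the thresholds, all higher in IF1TG, which is 2 of 44 complex I probes (4.55%) and 1 of 31 probes of complexes III and IV (3.23%) against 4.47% of all probes. None passed in the other 2 comparisons. The Cox7c call was on a dimmer probe (A_55_P1999838), and the brightest Cox7c probe differed by −0.06 and did not pass. Cox7b of complex IV passed in IF1TG versus IF1KO without the array labelled IF1KO replicate 1. These lists are smaller or larger than the members and were not tested against them.

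**Figure D5:**
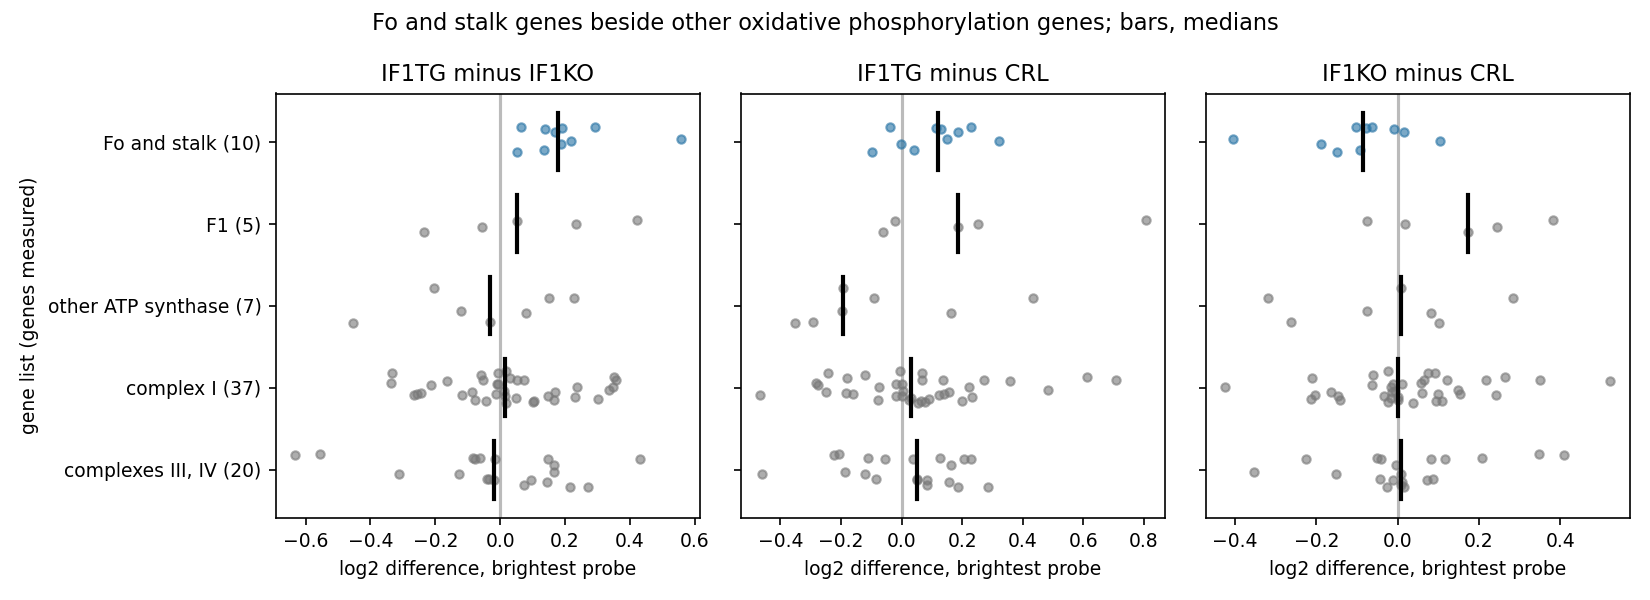
Log2 difference of each gene (brightest probe) in the 3 comparisons, for the members and for 4 lists of other oxidative phosphorylation genes, with bars for the medians. All points and bars are from the fit without slide. In IF1TG minus IF1KO all 10 members lie above 0, from 0.05 to 0.56, and the other lists spread on both sides. In IF1KO minus CRL the median of the members is −0.09 and that of F1 is 0.17. With slide in the model these medians are 0.0038 and 0.05, and without IF1KO replicate 2 they are −0.03 and 0.08.

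The genes whose profile over the 9 arrays lay nearest to the mean profile of the members were Atp6v1f, a subunit of the vacuolar proton pump, Mink1, a protein kinase, Trim27, a ubiquitin ligase, Smg1, a kinase of nonsense-mediated decay, and Eef1a1, a translation elongation factor. Their root mean square distances in log2 were 0.037, 0.041, 0.041, 0.043 and 0.045, of 21649 genes compared with a median distance of 0.25. Being chosen for this profile, they share it. Atp6v1f, relative to its mean, read −0.20, −0.09 and −0.16 on the slide 3 arrays and from 0.01 to 0.16 on the 6 others.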

How the data were processed

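RNA of the hippocampus of 9 mice was hybridized to one-colour Agilent arrays, 1 per mouse. The authors deposited spot intensities of Agilent Feature Extraction 10.7.3.1, in which background had been subtracted within each array and nothing normalized between arrays, and the deposited spot marks (well above background, outlier) were used as they stand. Genotypes come from the labels, and the slide from the labels of the arrays. Control and outlier spots were left out, spots of a probe were averaged, and from the log2 intensity the 75th percentile of the same array was subtracted. Of 39429 probes, 27991 were kept, which on every array of 1 or more genotypes had over 0.5 of their spots well above background. A linear model of genotype was fitted to the 9 arrays (limma 3.58.1, R 4.3.3, eBayes), and P values were adjusted over all kept probes. A call needed a fold of 1.5 and an unadjusted P below 0.05, as in the methods of the study. The number of arrays limits the precision. P values measure the spread between these samples.

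Genes are described by their brightest kept probe, and other kept probes are named as well. The members, gene lists and tests were chosen with earlier results of these data known. Named beside the members were Atpif1, those F1 and other ATP synthase genes past the thresholds or, where none was, the 2 with the largest difference of IF1TG from IF1KO, called probes of complexes I, III and IV, and the 5 genes nearest in profile. Further values were chosen after they were seen. The deposited mean and local background intensities were used in the normexp alternative (offset 50, followed by quantile normalization). Alternatives were normexp with quantile normalization, quantile normalization alone, other filters, slide or replicate number as a block, 2 genotypes only, a robust trend, the mean of a gene's probes, leaving out each array, and, added after seeing the data, probes on the chromosome of their gene, list medians with each array left out, and slide as a block without IF1KO replicate 1. Gene names and chromosomes were matched in a RefSeq table of another build, which gave no coordinates.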

Additional observations from a re-analysis of the deposited data

How the results depend on the processing

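The median difference of the members moved by less than the SD between replicates with 1 exception, from 0.07 to 0.18 in IF1TG versus IF1KO (0.14 to 0.21 with each array left out), from 0.04 to 0.15 in IF1TG versus CRL (0.02 to 0.16) and from −0.10 to 0.0038 in IF1KO versus CRL (−0.18 to −0.02). The exception, added after seeing the data, was slide as a fixed block with the array labelled IF1KO replicate 1 dropped, which gave −0.0049, 0.083 and 0.041. With replicate number as a block the medians were 0.18, 0.12 and −0.09 and no member probe was called. Whether mice of the same replicate number were paired is not given in the sources used here. The deviations of same-numbered arrays correlated between −0.165 and 0.116, over 0.1 in 1 of 9 pairs. Probes called among all probes, in the order IF1TG versus IF1KO, IF1TG versus CRL and IF1KO versus CRL, were 1056, 1250 and 298 in the main model, 562, 568 and 163 with normexp and quantile normalization together and 3187, 4670 and 734 with no filter. They were 179 in IF1KO versus CRL where a probe had to be above background on each of the 9 arrays, and in IF1TG versus CRL 2245 with slide as a fixed block and 2184 with that array dropped as well. Leaving out each array gave 617 to 1757, 989 to 1961 and 182 to 1019. Member probes called were 0 in all comparisons, 1 in IF1TG versus CRL with slide as a fixed block, 1 in each comparison with IF1TG with that array dropped as well, and 0 to 1 in each comparison with an array left out.

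Atpif1 in IF1TG versus IF1KO was 0.72 (called), and lost the call with normexp and quantile normalization (0.58), with slide as a fixed block (0.39) and with 2 genotypes only (0.72). It also lost the call in 5 of the 9 fits with an array left out: without IF1KO replicates 2 (0.46) and 3 (0.62) and without IF1TG replicates 1 (0.73), 2 (0.75) and 3 (0.68). The range over those 9 was 0.46 to 1.07, the highest without the array labelled IF1KO replicate 1, and it was called at 1.01 with slide as a fixed block and that array dropped. Within slide 2 the difference was 0.079, which is IF1TG replicate 3 minus that 1 array and shows only its lack of Atpif1 loss. In IF1KO versus CRL it was −0.56, from −0.91 (called, without the array labelled IF1KO replicate 1) to −0.30 with an array left out, −0.82 (called) with slide as a fixed block and that array dropped, and 0.11 within slide 2, where that array is again the only one of IF1KO.

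Single members changed sign, and the cause was not tested. In IF1TG versus IF1KO, Atp5g2, Atp5h and Atp5j2 were at −0.020, −0.12 and −0.026 with normexp and quantile normalization, Atp5g2 and Atp5h at −0.036 and −0.053 with quantile normalization alone, Atp5g2 and Atp5l at −0.30 and −0.022 with slide as a fixed block, and Atp5j2 at −0.0081 with the mean of its probes. In IF1TG versus CRL, Atp5j was at −0.0086 with normexp and quantile normalization, Atp5l at −0.030 with quantile normalization alone, −0.019 with slide fixed and −0.025 with the mean of its probes, Atp5h at 0.10 with slide fixed, Atp5g3 at 0.0013 with slide random and Atp5g2 at 0.0058 with the mean of its probes. In IF1KO versus CRL, Atp5g1 and Atp5h were at −0.053 and 0.0018 with normexp and quantile normalization, Atp5f1, Atp5k, Atp5l and Atp5o at 0.0042, 0.052, 0.0035 and 0.019 with slide fixed, and Atp5k at 0.0028 with slide random and 0.25 with the mean of its probes. With slide fixed and the array labelled IF1KO replicate 1 dropped, Atp5g2, Atp5g3, Atp5k, Atp5l and Atp5o were at −0.46, −0.14, −0.071, −0.069 and −0.019 in IF1TG versus IF1KO, Atp5h and Atp5l at 0.080 and −0.030 in IF1TG versus CRL, and Atp5g2, Atp5g3, Atp5h, Atp5k, Atp5l and Atp5o at 0.040, 0.041, 0.019, 0.16, 0.039 and 0.044 in IF1KO versus CRL. With each array left out, IF1TG versus IF1KO ranged from −0.087 to 0.16 for Atp5g2 and −0.064 to 0.29 for Atp5h. IF1TG versus CRL ranged from −0.24 to 0.015 for Atp5g2, −0.13 to 0.097 for Atp5g3, −0.17 to 0.19 for Atp5h and −0.068 to 0.13 for Atp5l. IF1KO versus CRL ranged from −0.28 to 0.14 for Atp5f1, −0.025 to 0.053 for Atp5g1, −0.0059 to 0.18 for Atp5j2, −0.11 to 0.053 for Atp5k and −0.18 to 0.015 for Atp5o. The brightest probes of 9 of the 10 members were well above background on all 9 arrays, and the number of arrays limits what can be told apart.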
